A study of Mus musculus with 12 samples.

Results

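The 10 genes described here mark neural progenitors or carry Notch signalling in the developing nervous system. They are Sox2, Nes, Vim, Fabp7 and Msi1, which mark stem and progenitor cells, the Notch ligands Dll1 and Dll3, the receptor Notch1, and the Notch target genes Hes1 and Hes5. The set was chosen by gene name. All 10 had at least 1 probe set annotated with that single symbol, out of 18193 genes with such a probe set on the array, and together they had 18 probe sets of 34945. Each gene was read from its probe set with the highest mean signal over the 12 samples, and all 10 passed the filter on dim probe sets, which kept 12598 genes.

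Total RNA from 12 mouse samples was hybridized to Affymetrix expression arrays, 1 array per sample. The 4 groups of 3 samples were NR3B knockout (KO) mice at postnatal day 5 (P5 KO), wild-type mice at postnatal day 5 (P5 WT), NR3B knockout mice at postnatal day 0 (P0 KO) and wild-type mice at postnatal day 0 (P0 WT). NR3B is taken here to be the product of Grin3b, an NMDA receptor subunit. The sources used here do not give the strain, the deleted part of the gene or whether tissue was pooled. Samples of a group carry numbers, but no label says that each came from its own animal, so the p-values rest on a spread between samples that may be partly technical.

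Neural progenitors such as radial glia go on dividing while Notch signalling holds them back from becoming neurons, and later give rise to astrocytes. A cell that expresses the ligand Dll1 on its surface activates Notch1 on its neighbour, the receptor is cleaved, and its freed intracellular domain joins the DNA-binding protein RBPJ to switch on Hes1 and Hes5. These encode repressors of proneural genes, so that cells with active Notch stay progenitors while their neighbours differentiate. After birth the same genes are found in the remaining germinal zones, such as that of the cerebellum, and in astrocytes.

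The promoters of the Notch targets are shown because the core letters bound by RBPJ, GTGGGAA, can be read in them. Sequences are from the RefSeq promoter table of build GRCm38.p6, which holds windows of 250 bases before and 50 bases after a transcription start, and each is printed 5′ to 3′ on the gene's strand up to 10 bases after the start. Of the 10 genes, 8 had 9 windows in the table, and 4 of 8 listed Notch targets had one. Hes1 and Msi1 had no window, so their promoters were not searched. Capitals mark the letters GTGGGAA or, on the opposite strand, TTCCCAC. Hes5 is the member among the Notch targets whose level differed with age below, Hey2 is the other listed target with a match, and Vim is the progenitor gene that differed with age.
Hes5, chr4:154960673-154960932, plus strand: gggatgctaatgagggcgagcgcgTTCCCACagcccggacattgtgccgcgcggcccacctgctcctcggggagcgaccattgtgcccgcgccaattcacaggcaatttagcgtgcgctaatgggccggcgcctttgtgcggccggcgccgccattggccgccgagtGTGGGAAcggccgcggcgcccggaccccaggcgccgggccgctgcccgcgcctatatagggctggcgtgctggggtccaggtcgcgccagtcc
Hey2, chr10:30842774-30843033, minus strand: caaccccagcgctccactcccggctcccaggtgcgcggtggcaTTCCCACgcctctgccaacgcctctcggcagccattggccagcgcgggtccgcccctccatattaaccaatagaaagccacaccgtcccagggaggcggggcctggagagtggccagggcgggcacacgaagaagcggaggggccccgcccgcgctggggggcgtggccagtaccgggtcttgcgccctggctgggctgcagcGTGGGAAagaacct
Vim, chr2:13574061-13574320, plus strand: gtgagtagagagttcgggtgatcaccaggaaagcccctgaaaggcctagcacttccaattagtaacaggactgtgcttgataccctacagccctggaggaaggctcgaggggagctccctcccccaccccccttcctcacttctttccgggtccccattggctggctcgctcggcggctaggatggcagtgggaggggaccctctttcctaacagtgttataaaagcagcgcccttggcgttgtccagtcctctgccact
The Hes5 window held 2 matches that start 226 and 83 bases before the transcription start, the first on the opposite strand. The Hey2 window also held 2, starting 207 and 4 bases before the start, and the Vim window held 0. Of all 32851 windows, 6.38% held at least 1 match and 84 windows, or 0.256%, held 2 or more. Hes5 was the only one of the 8 genes with a window that held a match, and of the other listed targets with a window Hes6 and Nrarp held 0. These are matches of letters, not measured binding.

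Neural markers were bright in all 12 samples. The mean log2 level of Tubb3, Stmn2 and Snap25, genes of neurons, lay between 15.71 and 16.25 in every sample. Hoxb5, Hoxc8 and Hoxa9, which pattern the hindbrain and spinal cord, averaged 11.46 to 11.66 in P5 KO, 11.66 to 11.68 in P5 WT, 12.27 to 13.04 in P0 KO and 11.98 to 12.80 in P0 WT. One label field names the tissue as brain together with hindbrain and spinal cord, and another names brain alone. Grin3b, read by a dim probe set, had signals of 44.5 ± 4.44 in P5 KO, 199 ± 64.8 in P5 WT, 55.7 ± 35.9 in P0 KO and 285 ± 79.3 in P0 WT (SD, n = 3 each), and every KO sample lay below every WT sample of its age. A two-sided exact permutation test gave p = 0.1 at each age and p = 0.005 over both ages, the lowest values that groups of 3 can reach.

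The P0 samples spread more than the P5 samples. On the log2 scale, the SD within a group, taken at the median of the genes, was 0.13 in P5 KO, 0.12 in P5 WT, 0.21 in P0 KO and 0.27 in P0 WT. The signal of 18S ribosomal RNA was 6471 in P0 WT sample 1 and between 49746 and 104387 in the other 11 samples, and P0 WT sample 2 received the lowest array weight, 0.19, when limma estimated how well each array followed its group. The weights of P0 WT samples 1 and 3 were 0.36 and 2.45, so with array weights the P0 WT mean rested mostly on sample 3. Xist, which marks female tissue, was high in 1 of 3 P5 KO, 0 of 3 P5 WT, 2 of 3 P0 KO and 2 of 3 P0 WT samples. Sex therefore differed between the groups, and its part in the results was not tested.

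Between birth and day 5 the level of Vim and of Hes5 rose, and the other 8 genes did not pass the test. All levels are quantile-normalized log2(signal + 16) values, on which changes of dim genes come out too small, and a gene was called changed at a limma adjusted p (Benjamini-Hochberg over the 12598 genes) under 0.05. In the P5 minus P0 difference averaged over KO and WT, 2 of the 10 genes were higher and 0 lower. Over all genes tested 29.6% were called changed, with 14.5% higher at P5 and 15.1% lower, so the share among the 10 genes was not above that of genes in general. The median of the 10 differences was 0.10, against 0.00 over all genes. In bulk tissue, more cells of a type and more RNA per cell cannot be told apart.

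**Figure D1:**
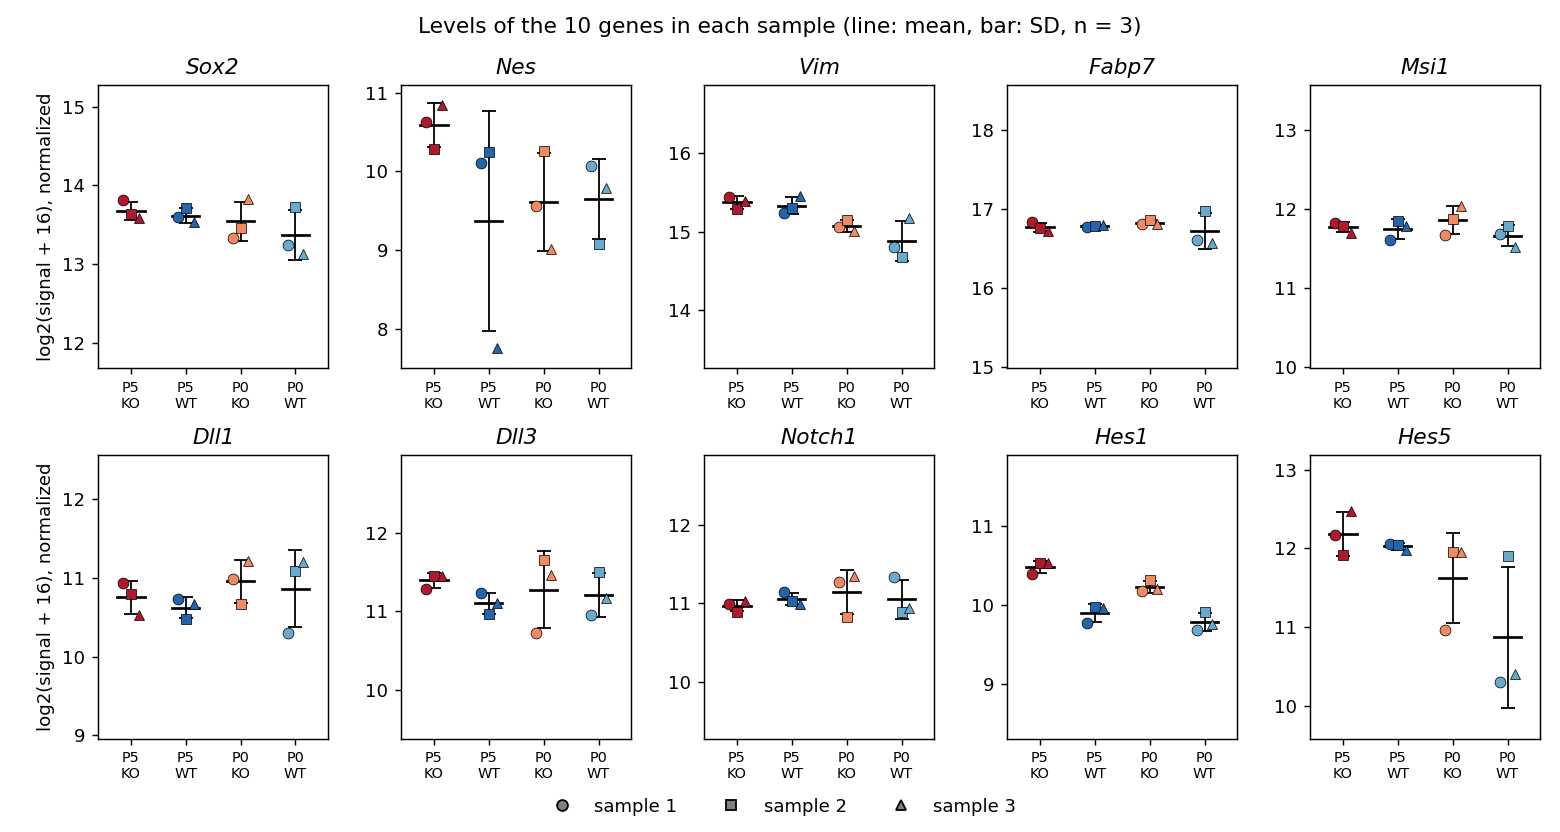
Log2 level of each of the 10 genes in every sample, by group (P5 KO, P5 WT, P0 KO, P0 WT), with marker shapes for sample 1, 2 and 3, a line at the mean and a bar for the SD (n = 3). All panels span the same range of log2 units. Hes1 in all 6 KO samples (10.17 to 10.53) lies above all 6 WT samples (9.68 to 9.97), Hes5 is spread widely at P0, and 1 P5 WT sample of Nes stands at 7.75.

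Vim encodes vimentin, the intermediate filament of radial glia, immature astrocytes, meningeal and vascular cells. Its log2 level was 15.43, 15.28 and 15.39 in P5 KO, 15.23, 15.30 and 15.45 in P5 WT, 15.06, 15.15 and 15.00 in P0 KO and 14.80, 14.68 and 15.17 in P0 WT. Every P5 sample thus lay above every P0 sample, as in 7.44% of all genes, and 15.2% had no overlap in either direction. The P5 minus P0 difference averaged over genotypes was 0.37 (SE 0.09, 95% confidence interval 0.18 to 0.57, limma adjusted p = 0.00804), or 1.29-fold, and it passed the threshold under all 22 alternative settings and left-out samples tried for it. It was 0.30 (SE 0.13, adjusted p = 0.161) in KO and 0.44 (SE 0.13, adjusted p = 0.0296) in WT, where it did not pass without P0 WT sample 1 (adjusted p = 0.0865) or without P5 WT sample 1, 2 or 3 (0.06, 0.077 and 0.112). With P0 WT samples 1 and 2 both left out, the difference in WT was 0.16 (adjusted p = 0.374), with the lone P0 WT sample assumed to vary like the other groups, and the averaged difference was 0.23 (adjusted p = 0.033). Both other Vim probe sets lay on the same side at 0.24 (SE 0.09) and 0.22 (SE 0.09), with limma adjusted p = 0.118 and 0.146 over all probe sets.

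Hes5 encodes a repressor of proneural genes and is among the most direct readouts of Notch activity in the nervous system. Its log2 level was 12.17, 11.91 and 12.47 in P5 KO, 12.06, 12.04 and 11.97 in P5 WT, 10.97, 11.95 and 11.96 in P0 KO and 10.30, 11.91 and 10.41 in P0 WT. The 6 P5 samples were close together. At P0, 3 samples lay within the range of the P5 samples or just below it and the other 3 lay at 10.97 or lower, so the ages overlapped in KO and did not overlap in WT, where 35.4% of all genes had no overlap. The averaged difference was 0.85 (SE 0.25, 95% confidence interval 0.31 to 1.40, limma adjusted p = 0.0228), or 1.81-fold. It did not pass without P0 WT sample 1 (0.71, adjusted p = 0.0558), P0 WT sample 3 (0.74, adjusted p = 0.0618), P0 KO sample 1 (0.69, adjusted p = 0.0525) or P5 KO sample 3 (0.78, adjusted p = 0.0577).

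In WT alone, Hes5 and Vim were again the members called higher, 2 of 10, against 19.4% of all genes called changed and 10.8% called higher. The Hes5 difference in WT was 1.15 (SE 0.36, limma adjusted p = 0.0393), or 2.23-fold. That call was lost without P0 WT sample 1 or 3, any P5 WT sample, or P5 KO sample 1 or 2, with adjusted p between 0.0505 and 0.159. The second Hes5 probe set correlated with the first at r = 0.87 over the 12 samples and gave a smaller averaged difference of 0.44 (SE 0.17, adjusted p = 0.122 over all probe sets).

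In KO alone, 0 of the 10 genes passed the test in limma (1 at an unadjusted p under 0.05, as were 25.1% of all genes), against 10.5% of all genes called. The Hes5 difference was 0.56 (SE 0.36, adjusted p = 0.376). The test of whether the age difference itself differed between KO and WT called 0 members and 0 of all genes (0 and 622 at an unadjusted p under 0.05), with -0.60 (SE 0.51) for Hes5 and 1.26 (SE 0.76) for Nes.

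**Figure D2:**
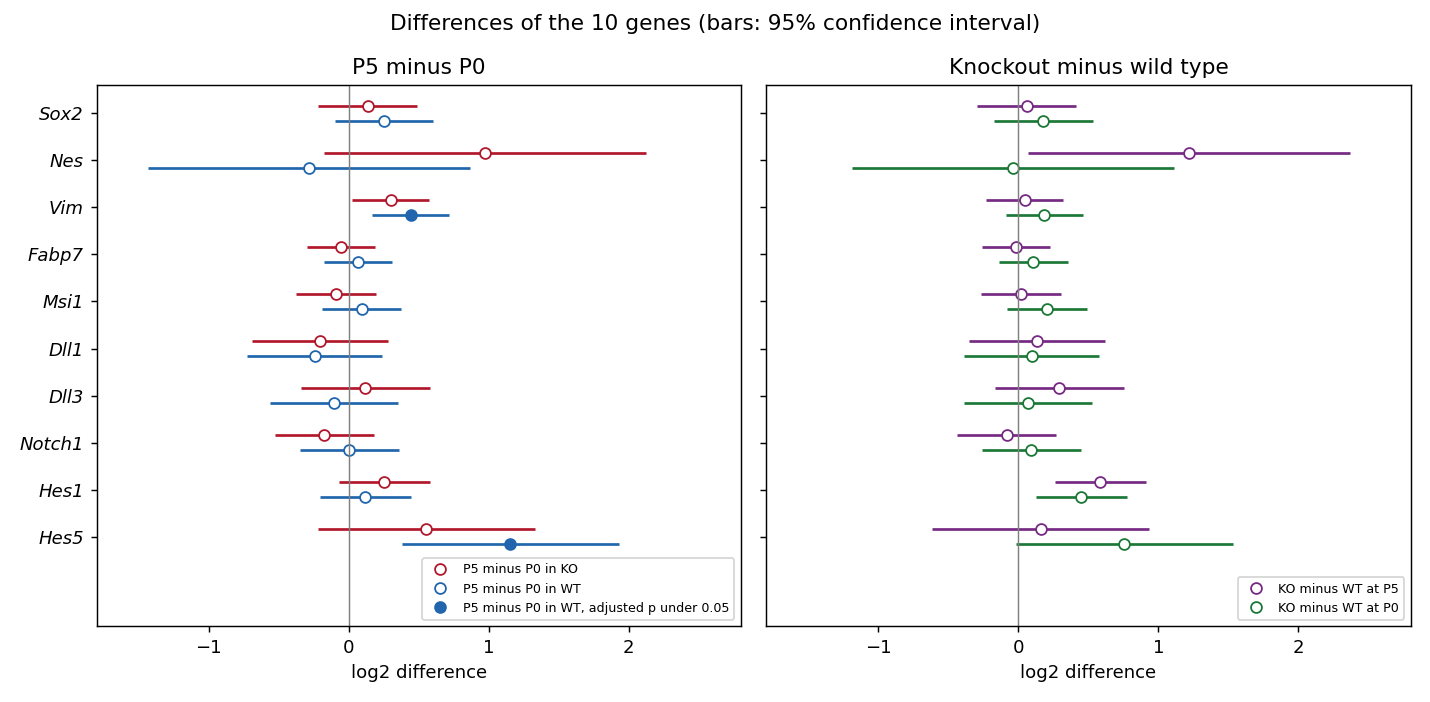
Log2 differences of the 10 genes with 95% confidence intervals from limma. The left panel gives P5 minus P0 in KO and in WT and the right panel KO minus WT at P5 and at P0, with filled symbols where the adjusted p is under 0.05. Only Vim (0.44) and Hes5 (1.15) in P5 minus P0 in WT are filled.

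The remaining progenitor markers gave no call with age in the fit of all 12 samples. Sox2, a transcription factor that keeps progenitors undifferentiated, had log2 levels of 13.81, 13.64 and 13.58 in P5 KO, 13.60, 13.71 and 13.54 in P5 WT, 13.34, 13.46 and 13.82 in P0 KO and 13.24, 13.73 and 13.13 in P0 WT. Its ages overlapped in both genotypes, and the averaged P5 minus P0 difference was 0.19 (SE 0.12, limma adjusted p = 0.22). Without P0 WT sample 2, whose Sox2 level was the highest of its group, the difference was 0.28 and passed the test (adjusted p = 0.0255), in a fit that called 42.6% of all genes. It also passed in limma with array weights (0.27, adjusted p = 0.0153) and with P0 WT samples 1 and 2 both left out (0.31, adjusted p = 0.0414).

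Fabp7, a fatty acid binding protein of radial glia that is itself induced by Notch, ranged over 16.72 to 16.83 in P5 KO, 16.77 to 16.80 in P5 WT, 16.81 to 16.86 in P0 KO and 16.57 to 16.98 in P0 WT. Its averaged difference was 0.00 (95% confidence interval -0.17 to 0.18). Msi1, an RNA-binding protein that sustains Notch signalling by restraining Numb, ranged over 11.70 to 11.83 in P5 KO, 11.61 to 11.86 in P5 WT, 11.68 to 12.04 in P0 KO and 11.52 to 11.78 in P0 WT, with an averaged difference of 0.00 (95% confidence interval -0.20 to 0.20). The Msi1 interval, that of the brightest of its 3 probe sets, leaves out a change as large as that of Vim. The other Msi1 probe sets, both dimmer, correlated with it at r = 0.22 and -0.16 over the 12 samples. Under the 22 alternatives tried, the averaged Msi1 difference spanned -0.05 to 0.36, so the narrow interval holds for the brightest probe set only. Fabp7 lay at the 99.9th percentile of the genes tested, where quantile normalization narrows differences: its deposited signals of 77873 to 167589 in P0 WT became levels 0.40 log2 units apart, and with the deposited scaling the SE of its averaged difference was 0.16 in place of 0.08. Its narrow interval therefore does not show a stable level.

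Nes encodes nestin, an intermediate filament of dividing progenitors that is also present in new vessels. Its log2 level was 10.62, 10.29 and 10.84 in P5 KO, 10.10, 10.24 and 7.75 in P5 WT, 9.55, 10.26 and 9.01 in P0 KO and 10.06, 9.08 and 9.79 in P0 WT. P5 WT sample 3 stood far below the other 2 of its group, and the pooled within-group SD of 0.82 was at the 99.3rd percentile of the genes tested. The averaged age difference was 0.35 (SE 0.38, limma adjusted p = 0.51), and without P5 WT sample 3 it was 0.75 and passed (adjusted p = 0.0384). The second Nes probe set, correlated with the first at r = 0.10, read 9.31, 9.15 and 9.35 in P5 WT, with no low sample in that group. It read 9.12, 9.20 and 8.04 in P0 WT and gave an averaged difference of 0.30 (SE 0.22), which its low P0 WT sample 3 enlarged.

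The ligands and the receptor did not pass either. Dll1, the main activating ligand of neural progenitors, ranged over 10.53 to 10.94 in P5 KO, 10.47 to 10.73 in P5 WT, 10.67 to 11.22 in P0 KO and 10.30 to 11.20 in P0 WT, with an averaged difference of -0.22 (SE 0.16, limma adjusted p = 0.305). Without P0 WT sample 1, which held the lowest of these levels, it was -0.36 and just passed (adjusted p = 0.0499). Dll3, a ligand that acts mainly by inhibiting Notch inside the same cell, had a difference of 0.01 (SE 0.15).

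Notch1 had a difference of -0.09 (SE 0.12, limma adjusted p = 0.608), with ranges of 10.89 to 11.03 in P5 KO, 10.99 to 11.14 in P5 WT, 10.83 to 11.34 in P0 KO and 10.88 to 11.34 in P0 WT. The second Notch1 probe set gave 0.24 (SE 0.17) and correlated with the first at r = 0.09 over the 12 samples, so the sign of the Notch1 difference depended on the probe set. Hes1, the other target gene, had an averaged age difference of 0.19 (SE 0.11, adjusted p = 0.197).

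**Figure D3:**
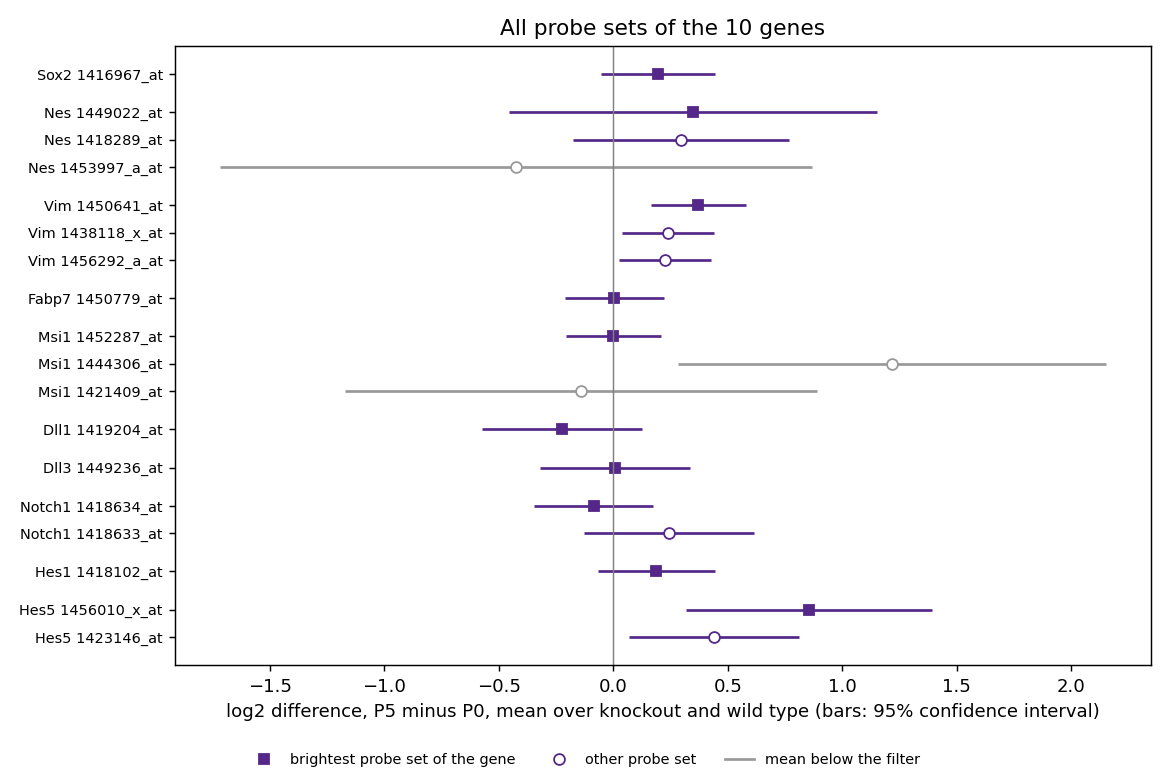
P5 minus P0 log2 difference, averaged over KO and WT, for all 18 probe sets of the 10 genes, with 95% confidence intervals. Squares are the brightest probe set of each gene, circles the others, and grey marks probe sets with a mean below the filter. Both Hes5 probe sets (0.85 and 0.44) and all 3 Vim probe sets (0.22 to 0.37) lie above 0, while the 2 Notch1 probe sets (-0.09 and 0.24) lie on opposite sides.

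Other genes of the pathway moved in both directions with age. Of 75 listed genes besides the members, 69 had a single-symbol probe set and 63 passed the filter. In P5 minus P0 averaged over genotypes, 17 of them were higher and 8 lower in limma, against 14.5% of all genes higher and 15.1% lower, with a median difference of 0.09 against 0.00 over all genes.

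Among the ligands, 1 was higher and 4 lower of 8 tested, members included, beside the 14.5% and 15.1% of all genes. Dlk1, a membrane protein with the repeats of Notch ligands but without their receptor-binding domain, fell by 1.03 (SE 0.14, limma adjusted p = 0.000146). Its log2 level was 10.42 to 10.83 in P5 KO and 10.27 to 10.55 in P5 WT, against 11.37 to 11.96 in P0 KO and 11.12 to 11.76 in P0 WT, so no P5 sample reached a P0 sample. Its relative Dlk2 fell by 0.87 (adjusted p = 0.00103), the ligand Jag2 fell by 0.53 (adjusted p = 0.0326), and Dner, a neuronal ligand of Notch on glia, fell by 0.35 (adjusted p = 0.0243).

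Of the 4 receptors, Notch2 alone passed, at 0.59 (SE 0.20, limma adjusted p = 0.0387), while Notch3 was at -0.01 and Notch4 at -0.31 (adjusted p = 0.968 and 0.134). The Notch2 difference was 1.04 (SE 0.28, adjusted p = 0.0211) in WT but 0.135 (SE 0.28, adjusted p = 0.817) in KO. Its ages overlapped in both genotypes, and its interaction was -0.90 (SE 0.39, adjusted p = 0.743). Among 8 genes of receptor processing, Adam17, a protease that sheds membrane proteins, rose by 0.52 (adjusted p = 0.000561), and the γ-secretase subunit Psenen rose by 0.58 (adjusted p = 0.05 after rounding, just under the threshold). The γ-secretase genes Ncstn and Aph1a did not pass, at -0.20 and 0.17. Of 16 modifiers, Mfng, which adds sugars to Notch, rose by 0.84, its relative Rfng fell by 0.41, and Dtx4, a ubiquitin ligase of the Deltex family, fell by 0.62 (adjusted p = 0.00242, 0.00236 and 0.00196). Rbpj and the other nuclear factors gave 0 calls of 6, against 29.6% of all genes called. Of the 6, 3 had an unadjusted limma p under 0.05, as did 41.7% of all genes.

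Of 7 tested genes listed as Notch targets, Hes6 among them, 2 were higher and 0 lower. That share can be set against the 14.5% of all genes called higher and the 29.6% called in either direction. Hey1, a repressor related to the Hes proteins, rose with age by 0.92 (SE 0.11, limma adjusted p = 4.48e-05), to 12.41 to 12.49 in P5 KO and 12.40 to 12.52 in P5 WT, against 11.29 to 11.87 in P0 KO and 11.30 to 11.73 in P0 WT. No P5 sample of Hey1 overlapped a P0 sample. Hes5 was the other, while Nrarp, a feedback inhibitor of Notch, was at 0.22 (adjusted p = 0.176), Heyl at 0.17 and Hey2 at -0.22 (adjusted p = 0.409 and 0.217). Hes3 lay below the filter.

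Of 19 progenitor and radial glia genes tested, members included, 7 were higher and 2 lower, against 14.5% and 15.1% of all genes, with a median of 0.19. Pax6, a transcription factor of radial glia that cerebellar granule cells also express, rose by 2.04 (SE 0.11, limma adjusted p = 4.85e-08). Ednrb, the endothelin receptor of progenitors and astrocytes, rose by 0.65 and Ptprz1, a phosphatase of radial glia and astrocytes, rose by 0.41 (adjusted p = 2.31e-05 and 0.00106). Prom1, the membrane protein prominin that is used to sort stem cells, fell by 0.54 (adjusted p = 0.00392).

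All 5 tested genes of neuron commitment were higher at P5. Insm1 rose by 2.97, Neurod1 by 2.77, Atoh1 by 2.04 and Eomes by 1.13 (SE 0.19, 0.14, 0.13 and 0.18, limma adjusted p = 2.7e-07, 4.05e-08, 2.75e-07 and 0.000555). Atoh1 specifies cerebellar granule cell precursors, and Neurod1 and Insm1 are used by neurons as they leave the cycle. All 6 proliferation genes tested were higher too, among them Mki67 by 2.15 and Top2a by 2.08, with a median of 1.53.

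**Figure D4:**
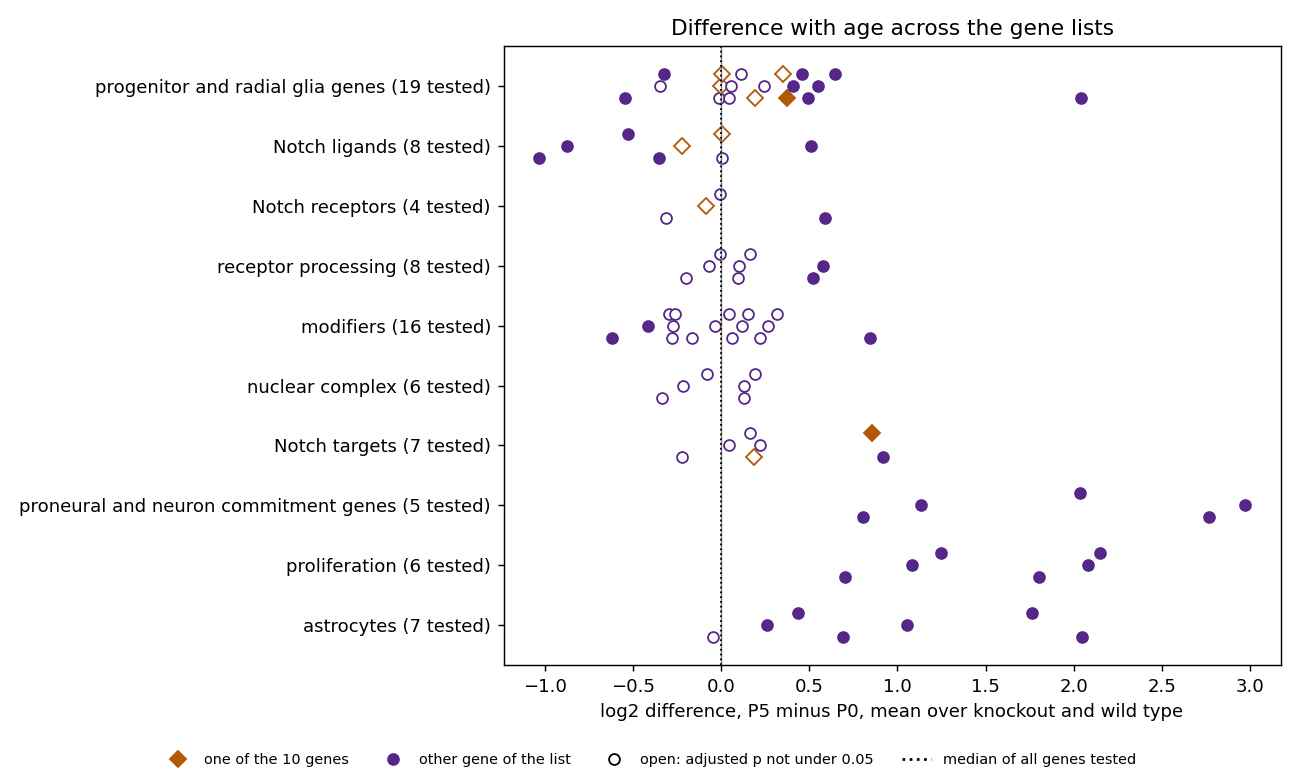
P5 minus P0 log2 difference averaged over KO and WT for each tested gene of 10 lists. Diamonds are members of the set of 10 and circles other genes, filled where the limma adjusted p is under 0.05, and the dotted line is the median of all 12598 genes. The 5 neuron commitment genes (0.81 to 2.97) and the 6 proliferation genes (0.70 to 2.15) lie to the right, while the members lie between -0.22 and 0.85.

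Markers of other cells moved with age as well. Of 7 astrocyte genes, 6 rose, against 14.5% of all genes, with a median of 0.69, and the mean level of the list was 14.81 to 14.87 in P5 KO, 14.72 to 14.79 in P5 WT, 13.76 to 13.96 in P0 KO and 13.88 to 14.01 in P0 WT. Astrocytes also express Vim, Fabp7, Sox2 and Hes5. Of 8 genes of meninges and fibroblasts, which express Vim, 4 rose (median 0.51), as did 3 of 6 endothelial genes (median 0.35) and 4 of 4 oligodendrocyte genes (median 2.79). Of 6 immature neuron genes 5 fell (median -0.32), and Hoxb5 and Hoxa9 fell by 1.29 and 0.92. The part of these shifts in the Vim and Hes5 results was not tested.

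Between KO and WT, 0 of the 10 genes passed the limma test at P5, at P0 or averaged over the ages. At an unadjusted p under 0.05 there were 2 of them at P5, 1 at P0 and 1 in the average, against 1.85%, 16.1% and 8.63% of all genes. Few genes of any kind passed: 0.00794% of all genes at P5, 0.0238% at P0 and 0.0238% in the average. All 10 averaged differences lay above 0, from 0.00 to 0.59 with a median of 0.12, against a median of 0.04 and 59% above 0 over all genes.

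Hes1 encodes a repressor that holds progenitors undifferentiated, and of the members it had the smallest p between the genotypes. Its log2 level was 10.40, 10.53 and 10.53 in P5 KO against 9.77, 9.97 and 9.96 in P5 WT, and 10.17, 10.32 and 10.21 in P0 KO against 9.68, 9.91 and 9.76 in P0 WT. All 6 KO samples lay above all 6 WT samples, which held in either direction for 29 genes, or 0.23% of those tested, and in this direction for 0.175%. On the deposited scale the signal averaged 1414 ± 35.8 in P5 KO and 962 ± 68.1 in P5 WT, and 1152 ± 107 in P0 KO and 877 ± 40.9 in P0 WT (SD, n = 3 each). Hes1 had a single probe set.

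The Hes1 difference, KO minus WT, was 0.58 (SE 0.15) at P5 and 0.45 (SE 0.15) at P0. The average over ages was 0.52 (SE 0.11, 95% confidence interval 0.29 to 0.75), or 1.43-fold, with an unadjusted p of 0.000274 and an adjusted p of 0.277 in limma, so it did not pass over all genes. The adjusted p at P5 was 1 and at P0 0.287. The test of a different genotype effect at the 2 ages gave 0.13 (SE 0.21). The averaged difference kept its sign under all 21 alternatives tried for it, at 0.47 to 0.55, and passed under 2 of them. Without P0 WT sample 2 it was 0.55 (adjusted p = 0.0259), and with array weights, which rest least on that sample, 0.55 (adjusted p = 0.01), in fits that called 5.9% and 16.2% of all genes. With P0 WT samples 1 and 2 both left out the averaged Hes1 difference was 0.53.

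For Hes5 the genotypes overlapped at both ages. At P0, its 3 P0 KO levels, 10.97, 11.95 and 11.96, overlapped the 3 P0 WT levels, 10.30, 11.91 and 10.41, since P0 WT sample 2 lay among the KO samples. The difference was 0.76 (SE 0.36, limma adjusted p = 0.315) at P0 and 0.16 (SE 0.36, adjusted p = 1) at P5. Without P0 WT sample 2, Hes1 and Hes5 both passed at P0, at 0.51 (adjusted p = 0.0446) and 1.27 (adjusted p = 0.00607), and Hes5 also passed in the average at 0.72 (adjusted p = 0.0339). In that fit 21.3% of all genes were called at P0, so calls were common there. The second Hes5 probe set gave 0.42 (SE 0.24) at P0 and -0.01 (SE 0.24) at P5.

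At P5 the groups did not overlap for 3 of the 10 genes, Hes1, Nes and Dll3, each higher in KO, against 12.9% of all genes that did not overlap at that age, 7.68% higher in KO. These counts use the brightest probe set of each gene. Both other Vim probe sets were higher in P5 KO without overlap, at 15.19 to 15.45 against 14.97 to 15.04 in P5 WT and 14.50 to 14.63 against 14.28 to 14.38. The second Nes probe set overlapped at P5. Dll3 read 11.29, 11.45 and 11.46 in P5 KO against 11.24, 10.97 and 11.10 in P5 WT, a difference of 0.29 (SE 0.21). The Nes difference at P5 of 1.22 (SE 0.53, limma adjusted p = 1) was 0.41 without P5 WT sample 3, and its second probe set gave 0.15 (SE 0.31). At P0, Hes1 was the 1 gene of 10 without overlap by its brightest probe set, against 10.2% of all genes. In another probe set each, Vim, Nes and Msi1 were also higher in P0 KO without overlap.

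For the other 6 members the averaged genotype difference was small. It was 0.12 for Sox2, 0.11 for Vim, Msi1 and Dll1, 0.05 for Fabp7 and 0.00 for Notch1, with 95% confidence intervals that reached from -0.25 to 0.46 over the 6 genes. Fabp7 lies on chromosome 10, as does Grin3b, and its KO minus WT difference was -0.02 at P5 and 0.11 at P0. A second Vim probe set gave an averaged difference of 0.31 (SE 0.09) with an unadjusted p of 0.00445 and an adjusted p of 0.637 over all probe sets, against 0.11 for the brightest and 0.13 for the third.

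Of the 63 other pathway genes, 0 passed between the genotypes in limma at P5, at P0 or averaged over the ages (1, 7 and 4 at an unadjusted p under 0.05, against 1.85%, 16.1% and 8.63% of all genes). Their median differences were 0.00 at P5, 0.07 at P0 and 0.03 in the average, against 0.01, 0.07 and 0.04 over all genes. Among the genes listed as Notch targets, the averaged KO minus WT difference was 0.25 (SE 0.13) for Hey2, 0.07 for Nrarp and -0.08 for Heyl. It was 0.23 (SE 0.10) for Hes6, which is on that list although it opposes Hes1. The ages differed: Hes6 was at 0.42 (SE 0.14) at P0 and 0.04 at P5, Nrarp at 0.32 (SE 0.17) and -0.18. At P5, Nrarp and Heyl were lower and Hey2 higher in KO without overlap, beside 12.9% of all genes without overlap in either direction. Of the proneural genes, Neurod1 was at 0.38 (SE 0.14, adjusted p = 0.576) and Insm1 at 0.36 (SE 0.19, adjusted p = 0.587). Notch2 was at -0.11 (SE 0.28) at P5 and 0.80 (SE 0.28, adjusted p = 0.287) at P0, where its levels were 11.43 to 11.77 in KO and 10.30 to 11.63 in WT. Ednrb was at -0.15 (SE 0.07) and Gli3, a transcription factor of the Hedgehog pathway, at -0.33 (SE 0.16).

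Markers of other cells lay on both sides of 0 in the same comparison. At P0, 8 of 8 meningeal and fibroblast genes (median 0.57), 5 of 6 microglia genes (median 0.64) and 2 of 2 red cell genes tested (median 1.44) lay above 0 in KO minus WT, and 0 of them passed the limma test (4, 3 and 2 at an unadjusted p under 0.05). Over all genes at P0, 59.1% lay above 0, with a median of 0.07, and 16.1% had an unadjusted limma p under 0.05. All 4 oligodendrocyte genes lay below 0, but each on its own overlapped between P0 KO and P0 WT. Mog, a myelin protein, was at -1.91 (limma adjusted p = 0.284), and the other oligodendrocyte genes were at -0.30 to -0.14. The mean level of that list, to which Mog added most of the difference, was 10.76 to 11.16 in P0 KO and 11.50 to 11.75 in P0 WT, without overlap. Of 7 astrocyte genes 2 and of 6 endothelial genes 2 lay above 0. The mean level of the meningeal list was 12.68 to 13.10 in P0 KO and 12.11 to 12.57 in P0 WT, and that of the microglia list 11.23 to 11.71 in P0 KO and 10.59 to 11.50 in P0 WT. At P5, 4 of 8 meningeal, 6 of 6 microglia and 0 of 4 oligodendrocyte genes lay above 0, against 51.6% of all genes. The meningeal list was at 13.12 to 13.25 in KO and 12.87 to 13.24 in WT, and the microglia list at 11.84 to 11.86 in KO and 11.50 to 11.59 in WT. Hes1 is also expressed in such non-neural cells, and their part in its difference was not tested.

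The 10 genes did not move as 1 group across the samples. Over the 12 samples, which share their age and genotype groups, the log2 levels of Sox2 and Hes5 correlated at r = 0.85 and those of Sox2 and Msi1 at 0.73, while Notch1 and Dll3 correlated at -0.54 and Nes with Sox2 at 0.00. Correlation with the mean of the 10 standardized levels, which holds the gene itself and so lifts r, was highest for Sox2 (0.87) and Hes5 (0.86) and lowest for Notch1 (-0.20). The spread between samples of a group also differed among the members, with a pooled SD of 0.10 for Hes1, at the 3.8th percentile of genes tested, and 0.55 for Hes5, at the 96.9th.

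The 5 other genes whose levels were most like the mean of the members over the 12 samples were Snrpa1, 2010320M18Rik, Twf2, Tnfrsf1a and Cmc1, with Pearson r between 0.94 and 0.95. They were picked as the highest r among all genes tested, so these values are a description and no test. Snrpa1 encodes a spliceosomal protein, Twf2 an actin-binding protein and Tnfrsf1a a receptor of tumour necrosis factor. Of these, Tnfrsf1a rose with age, by 0.44 (limma adjusted p = 0.0255), and Twf2 was at 0.12 (adjusted p = 0.441). Their KO minus WT differences averaged over ages lay between 0.26 and 0.43, and 0 of the 5 passed.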

How the data were processed

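The authors deposited 1 linear intensity per probe set and array, and no label, header or note names the program behind it. The mean without the extreme 2% at each end was 2500.01 on each array, so each had been scaled by a single factor. Of 45101 probe sets, 64 controls were left out, and 34945 carried a single gene symbol in the platform annotation, 932 several and 9160 none. RefSeq GRCm38.p6 held 34741 of these single symbols by gene identifier and changed 0 of them. The number of arrays, 3 per group, limits the precision.

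Signals were transformed as log2(signal + 16). Array medians spread over 0.27 log2 units, more than the limit of 0.1, so arrays were quantile-normalized. Each gene was read from its brightest single-symbol probe set by mean signal, and those with a mean log2 below the 40th percentile of probe sets (8.72) were left out. All 12 samples entered 1 model of group means (limma 3.58.1, R 4.3.3), whose prior followed the mean level (8 residual and 5.59 prior degrees of freedom), and 7 contrasts were adjusted by Benjamini-Hochberg over 12598 genes. Values of single probe sets, Grin3b included, came from the same fit without the filter. The fit was tested on simulated data.

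Alternatives were the deposited scaling, other pseudocounts, filters and prior, array weights, the mean of a gene's probe sets, fits of the compared groups, a replicate block, and left-out samples. Members, gene lists and alternatives were chosen with earlier results of these data known. Genes named are the 10 members, Grin3b, up to 4 genes per list with the smallest averaged p (by age, or by genotype), tissue markers and the 5 genes most like the members. Deviations from the group means correlated above 0.1 between same-numbered samples of 2 groups in 5 of 18 pairs (-0.13 to 0.42). The highest values, 0.42 and 0.38, were those of samples 1 and 2 in P0 KO with P0 WT. No label says that numbers pair samples, so they were not treated as paired.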

Additional observations from a re-analysis of the deposited data

How the results depend on the processing

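The 70 differences of the 10 genes were recomputed under up to 23 alternatives, 1559 values in all. Of these, 1444 kept their sign and their side of the threshold, 22 lost a call, 19 gained one and 74 turned in sign, with 0 of the 74 called in either setting. The cause of these shifts was not tested. With the replicate number as a block, Hes5 and Vim were the 2 members called in P5 minus P0 in WT and averaged, as without it, and 0 members were called in the other comparisons, while the count of all genes called in P5 minus P0 in WT was 2885 against 2442. Members called in P5 minus P0 in WT were 1 without the filter or the intensity trend (Vim), 1 with the mean of probe sets or with P0 WT samples 1 and 2 left out (Hes5), 0 with only the groups compared, and 4 with array weights (Sox2 0.44, Fabp7 0.18, Hes5 1.54, Dll1 -0.46), where 47.9% of all genes were called. Array weights also called 2 at P0 and 2 in the average between genotypes (Hes1 and Hes5), and 1 in the interaction (Hes5, -1.11, adjusted p = 0.0322), with 24.5%, 16.2% and 12.1% of all genes called. With these weights P0 WT rested mostly on sample 3. With P0 WT samples 1 and 2 left out, 1 member, Vim, was called in KO. Leaving out 1 sample at a time gave 0 to 2 members called at P0 and 0 to 2 in the average between genotypes, 0 to 3 in P5 minus P0 in WT and 1 to 3 averaged over genotypes. Without P0 WT sample 2 the genes called at P0 numbered 2681 and in the average 743, against 3 each with all samples.

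Most differences whose sign turned were small, but some of Nes and Msi1 were as large as the called Vim difference. With the deposited scaling, Notch1 was -0.034 between genotypes and Fabp7 -0.0091 with age, both averaged. With array weights, KO minus WT at P0 was -0.010 for Vim and -0.19 for Dll1, the average was -0.047 for Dll1, Dll3 with age was -0.028 in KO and -0.042 averaged, and the Vim interaction was 0.062. With the mean of probe sets, Notch1 was -0.087 at P0 and -0.051 averaged between genotypes, 0.12 with age in KO, 0.079 averaged and 0.073 in the interaction, Msi1 between genotypes was -0.49 at P5 and -0.045 averaged, and the Vim interaction was 0.014. With P0 WT samples 1 and 2 left out, Vim was -0.0997 and Dll1 -0.25 at P0, -0.028 and -0.057 averaged, and the Vim interaction was 0.14. With 1 sample left out, KO minus WT at P5 spanned -0.045 to 0.011 for Fabp7, -0.052 to 0.071 for Msi1, -0.0065 to 0.11 for Sox2 and -0.0032 to 0.10 for Vim. At P0 it spanned -0.19 to 0.26 for Dll1, -0.12 to 0.35 for Dll3, -0.36 to 0.26 for Nes and -0.0059 to 0.25 for Notch1, and averaged -0.028 to 0.20 for Dll1 and -0.045 to 0.084 for Notch1. P5 minus P0 spanned, averaged, -0.13 to 0.0996 for Dll3, -0.032 to 0.070 for Fabp7 and -0.045 to 0.045 for Msi1, in KO -0.16 to 0.30 for Dll3, and in WT -0.24 to 0.042 for Dll3, -0.0070 to 0.20 for Fabp7, -0.72 to 0.53 for Nes and -0.080 to 0.15 for Notch1. The interaction spanned -0.13 to 0.32 for Dll1, -0.055 to 0.41 for Dll3 and -0.30 to 0.024 for Sox2. Fits of only the groups compared were not run for averages and the interaction, which need all 12 samples.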

Other observations

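Genes of the progenitor niche below the brightness filter are given as values only. Neurog2, a proneural gene that Hes proteins repress, had signals of 692 ± 105 in P5 KO, 730 ± 153 in P5 WT, 186 ± 22.9 in P0 KO and 286 ± 37.8 in P0 WT (SD, n = 3 each). Neurod4, another proneural gene, had 445 ± 228 in P5 KO, 653 ± 94.6 in P5 WT, 117 ± 37.3 in P0 KO and 150 ± 65.7 in P0 WT. Nr2e1, a nuclear receptor of forebrain stem cells, had 177 ± 116 in P5 KO, 96.3 ± 47.4 in P5 WT, 42.7 ± 32.1 in P0 KO and 21.9 ± 7.25 in P0 WT. Hes3, a Hes gene of early neural stem cells, stayed dim, with 109 ± 88.5 in P5 KO, 51.9 ± 40.2 in P5 WT, 57.1 ± 25.2 in P0 KO and 106 ± 79.4 in P0 WT.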
